A study of Mus musculus domesticus with 6 samples.

Results

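The BCL2 family decides whether a cell under stress keeps its mitochondria intact or commits to apoptosis. Here 10 of its genes were followed in sorted mouse BFU-E (burst-forming erythroid progenitors, the first progenitors restricted to the red cell lineage), and all 10 were found by symbol among 55359 gene entries. They are the survival genes Bcl2, Bcl2l1, Bcl2l2 and Mcl1, the pore-forming effector Bak1, the BH3-only genes Bid, Bad, Bcl2l11 and Bmf, and the mitophagy receptor Bnip3l. Well-known p53 targets of the family (Bax, Bbc3 and Pmaip1) were left out of the set by choice. Bid and Bnip3l have themselves been described as p53-responsive in other cells, so the division is not absolute.

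Cells came from fetal livers at E14.5 and were sorted, per the labels of all 6 samples, as GFP-positive, lineage-negative, Kit-positive cells with low CD24 and CD71. There were 3 libraries labelled Exosc3 fl/fl Cre+ and 3 labelled Exosc3 fl/fl Cre-, here called Cre-positive and Cre-negative. All 6 therefore carry floxed alleles of Exosc3, a structural subunit of the RNA exosome that degrades and trims RNA, and the strain label of all 6 names Vav1-Cre, a transgene driven by a promoter of blood cells. The reporter eGFP averaged 37.7 CPM (read counts scaled to library size) in Cre-positive and 0.844 CPM in Cre-negative libraries (log2 fold change 5.48, adjusted p = 0.187 by edgeR's quasi-likelihood test with Benjamini-Hochberg adjustment). The sources used here do not explain how Cre-negative cells passed a GFP sort. The design text gives 2 samples from each of 3 litters, and the labels do not say which library came from which litter. The comparison asks how progenitor gene expression differs when Exosc3 is targeted.

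Survival members such as BCL2, BCL-XL (Bcl2l1), BCL-W (Bcl2l2) and MCL1 hold the effectors BAK and BAX in check at the outer mitochondrial membrane. BH3-only members carry stress signals: they bind the groove of the survival members through a short helix called BH3, and some of them also activate the effectors directly. In red cell formation BCL-XL is known for keeping late erythroblasts alive under erythropoietin, MCL1 for keeping early progenitors alive, and BNIP3L (NIX) for clearing mitochondria from reticulocytes.

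The BH3 segment is what ties survival and death members together, so the coding sequence at its core is shown for 3 survival members, the effector and 2 BH3-only members, as examples from each role. In the reference transcripts a leucine, any 3 residues, a glycine, alanine or serine and then an aspartate were searched for. That pattern occurred once in 9 of the 10 coded proteins and was not found in BCL-W. Each line holds 36 bases, 5′ to 3′, from GENCODE release M21 transcripts on GRCm38, with the codons of the leucine and of the small residue with its aspartate in capitals.
Bcl2: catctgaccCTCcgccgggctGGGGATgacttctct
Bcl2l1: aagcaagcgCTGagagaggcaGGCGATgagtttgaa
Mcl1: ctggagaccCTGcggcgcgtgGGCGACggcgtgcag
Bak1: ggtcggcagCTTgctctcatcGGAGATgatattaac
Bid: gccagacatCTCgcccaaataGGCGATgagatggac
Bcl2l11: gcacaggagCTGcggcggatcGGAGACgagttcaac
The leucine is residue 94 of BCL2, 90 of BCL-XL, 194 of MCL1, 76 of BAK, 90 of BID and 150 of BIM, the product of Bcl2l11. A glycine precedes the aspartate in all 6, while the same search gave a serine in BAD and an alanine in BMF and BNIP3L.

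Libraries held 89629949 to 124931215 expected counts. Exosc3 had 26.8, 22.1 and 30.2 CPM in the Cre-positive libraries, against 51.9, 44.3 and 48.0 CPM in the Cre-negative libraries. The Cre-positive mean was 0.548 of the Cre-negative mean. The targeted gene itself did not pass over all genes (log2 fold change -0.87, edgeR adjusted p = 0.259) and passed in 1 of 16 alternative analyses. All 12 markers of the sorted progenitors were detected in every library, and their summed level was 1952 to 2368 CPM in Cre-positive and 1813 to 2132 CPM in Cre-negative libraries. None passed over all genes by edgeR, DESeq2 or limma-voom. At an unadjusted p under 0.05 by edgeR there were 3, against 8.23% of all tested genes. Those 3 had positive log2 fold changes (Zfpm1 0.33, Hemgn 0.83 and the gate gene Cd24a 0.53). Zfpm1 and Cd24a were higher without overlap, and Kit, also a gate gene, was lower without overlap, at 346 CPM in Cre-positive and 395 CPM in Cre-negative libraries. The groups did not overlap for 15.2% of all tested genes. The part of these differences in the members' values was not tested. The 8 hepatocyte markers summed to 0 to 0.717 CPM in Cre-positive and 0 to 1.08 CPM in Cre-negative libraries. Genes detected in a single library had a median of 108 reads in it, and no molecular identifiers were counted, so low values of single libraries are imprecise.

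None of the 10 members passed an adjusted p of 0.05 in edgeR's quasi-likelihood test over all 13117 genes tested, where 0.122% of genes passed. At an unadjusted p under 0.05 there was 1 member, Bcl2, against 8.23% of all genes. With DESeq2 there was 1 call, again Bcl2, against 3.5% of genes. Simulated counts for this comparison were drawn with the gene-wise spread that edgeR estimated. On them DESeq2 found more of the changed genes than edgeR and also called unchanged genes far more often. With limma-voom there was 0, against 0.152% of genes, and with the replicate number as a block there was 0, against 0.427% of genes. The 10 log2 fold changes had a median of -0.03, with 5 positive and 5 negative, and the median of all tested genes was -0.01. The CPM values of the groups did not overlap for 3 of 10 members (Bcl2 lower, Mcl1 and Bnip3l higher in Cre-positive libraries), and they did not overlap for 15.2% of all tested genes (7.53% higher and 7.66% lower).

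**Figure D1:**
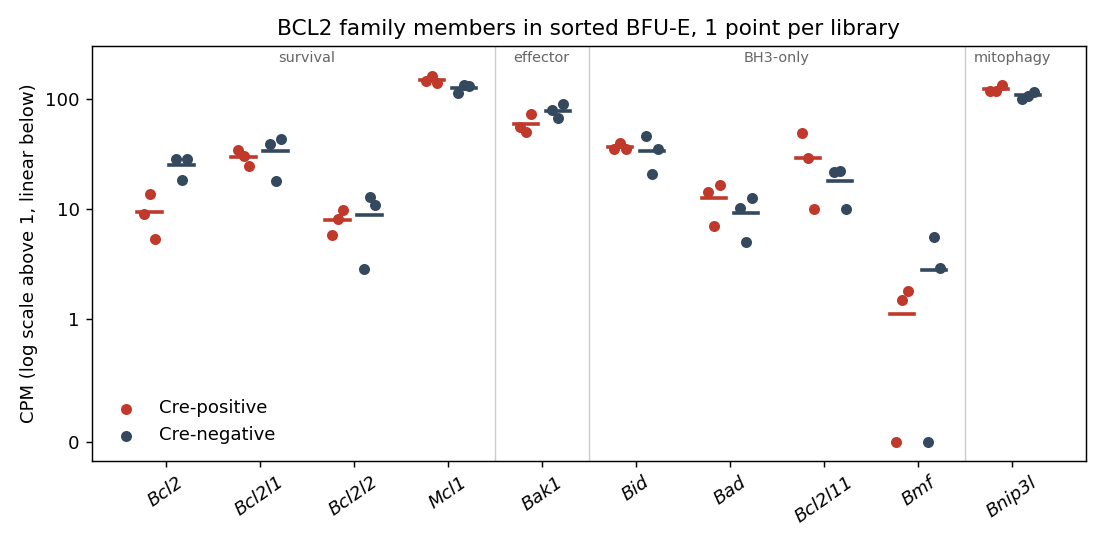
CPM of the 10 members in each library, 3 Cre-positive (red, left of each pair) and 3 Cre-negative (dark blue, right), with group means as bars and a vertical axis that is logarithmic above 1 and linear below. Bcl2 is lower in all 3 Cre-positive libraries, while Mcl1 and Bnip3l lie close together and Bmf is at 0 in 1 library of each group.

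Among the survival genes, Bcl2, which encodes the founding member that seals the outer membrane, was the member with the smallest p. It had 9.07, 13.6 and 5.31 CPM in Cre-positive replicates 1, 2 and 3, against 28.2, 18.4 and 28.5 CPM in the Cre-negative replicates. Every Cre-positive library lay below every Cre-negative one, and the mean was 0.372 of the Cre-negative mean. The 95% interval of the log2 fold change was -2.37 to -0.48, and edgeR gave an adjusted p of 0.314, in a range of 0.0105 with DESeq2 to 0.659 with limma on TPM. Without any 1 library the log2 fold change lay between -1.80 and -1.14. Those CPM rest on 612 to 1203 reads in Cre-positive and 1932 to 3541 reads in Cre-negative libraries. On the TPM scale, which divides by transcript length, Bcl2 stood at 1.44, 2.2 and 1.96 in Cre-positive libraries and at 5.13, 3.00 and 5.42 in Cre-negative libraries, again without overlap, as for 13.5% of all tested genes.

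Bcl2 is also expressed in lymphoid cells and early multipotent progenitors, and markers of some other blood lineages were lower in the same libraries. The 14 lymphoid markers summed to 3.30, 7.87 and 20.9 CPM in Cre-positive replicates 1, 2 and 3, against 70.2, 50.9 and 141.9 CPM in the Cre-negative replicates. Of the 9 lymphoid markers tested, 4 were lower in every Cre-positive library and 0 were higher, where 7.66% of all genes were lower without overlap. Ighm was the most abundant of them in Cre-negative libraries at 32.6 CPM, against 1.06 CPM in Cre-positive libraries, and Dntt, Vpreb1, Igll1 and Cd3e were at 0 in all 6 libraries. The 14 neutrophil and monocyte markers summed to 270, 241.7 and 547.6 CPM in Cre-positive replicates and to 985.6, 593.8 and 1568 CPM in the Cre-negative replicates. Mpo made up most of this at 305 CPM in Cre-positive and 912 CPM in Cre-negative libraries, with Ly6c2, S100a8 and S100a9 at 0 in all 6. The 10 stem and multipotent progenitor markers summed to 162, 140 and 318 CPM in Cre-positive and 319, 281 and 591 CPM in Cre-negative replicates, with overlap. Of these 10, 2 were lower in every Cre-positive library and 0 were higher, against 7.66% of all genes lower without overlap. Both replicates 3 had the highest sums of their group for all 3 lists. By CPM, Cre-positive replicate 3 had the lowest Bcl2 of all 6 libraries, while Cre-negative replicate 3 had the highest. By TPM, Cre-positive replicate 1 had the lowest Bcl2, at 1.44, against 1.96 in Cre-positive replicate 3. Cre-negative replicate 2 had the lowest sums of these 3 lists and the lowest Bcl2 of its group. The means of 10 megakaryocyte markers went the other way, with overlap. They summed to 53.9, 49.25 and 70.1 CPM in Cre-positive and 36.3, 39.35 and 60.7 CPM in Cre-negative replicates. The 10 mast cell, basophil and eosinophil markers summed to 60.6, 68.2 and 113 CPM in Cre-positive replicates. In Cre-negative replicates those 10 summed to 68.85, 78.3 and 123 CPM, with overlap. The 8 endothelial and stromal markers summed to 11.7, 18.6 and 33.6 CPM in Cre-positive and 29.4, 36.35 and 61.6 CPM in Cre-negative replicates, with overlap. The part these markers play in the Bcl2 values was not tested, and in bulk RNA fewer cells of a type and less RNA per cell cannot be told apart.

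**Figure D2:**
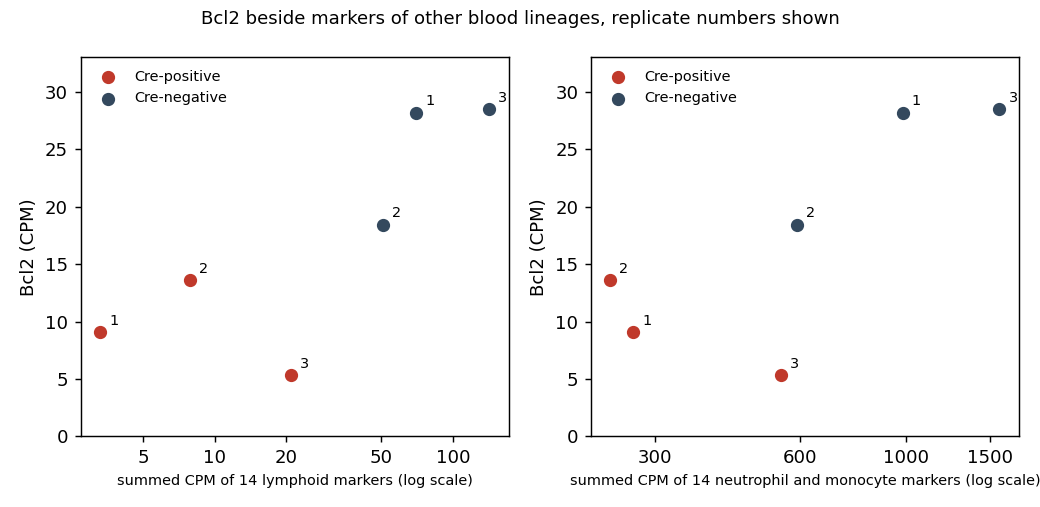
Bcl2 in CPM against the summed CPM of 14 lymphoid markers (left) and 14 neutrophil and monocyte markers (right, both on log axes), 1 point per library with its replicate number, Cre-positive in red and Cre-negative in dark blue. The Cre-positive libraries lie lower on both axes, and replicate 3 has the highest marker sums in both groups, with the lowest Bcl2 (5.31 CPM) among Cre-positive and the highest (28.5 CPM) among Cre-negative libraries, where replicate 2 has the lowest sums and the lowest Bcl2 (18.4 CPM).

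Across the 6 libraries the genes whose log2 CPM followed Bcl2 most closely, of 8152 tested genes with a mean of at least 10 CPM, were 1700017B05Rik, Map3k1, Zfp51, Angptl4 and Ighm. Their Pearson r with Bcl2 ran from 0.978 to 0.988 over 6 libraries that also differ by group, so they are given as a description. Map3k1, a kinase of stress signalling, averaged 95.1 CPM in Cre-positive and 115 CPM in Cre-negative libraries. Angptl4, a secreted lipase inhibitor, averaged 24.0 CPM in Cre-positive and 39.6 CPM in Cre-negative libraries. None of the 5 passed over all genes (edgeR adjusted p 0.278 to 0.614).

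Mcl1, whose product is short-lived and needed by early blood progenitors, was the most abundant survival transcript. It had 144, 159 and 138 CPM in the Cre-positive libraries, against 113, 133 and 130 CPM in the Cre-negative libraries. The groups did not overlap, but the gap between the lowest Cre-positive and the highest Cre-negative library was small. The mean was 1.17-fold that of Cre-negative libraries, with a log2 interval of -0.04 to 0.50 and an adjusted p of 0.716 (edgeR). On the TPM scale the groups overlapped, at 81.1, 112.9 and 87.4 in Cre-positive and 76.3, 55.3 and 96.3 in Cre-negative libraries.

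Bcl2l1, the gene of BCL-XL, had 34.5, 30.3 and 24.55 CPM in Cre-positive libraries, against 39.0, 17.9 and 43.2 CPM in Cre-negative libraries. The Cre-negative libraries enclosed all 3 Cre-positive values, and the log2 interval was -0.93 to 0.60 (edgeR adjusted p = 0.995). Its direction turned, to 0.06 on the log2 scale, without Cre-negative replicate 3.

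The transcripts counted for Bcl2l1 were nevertheless longer on average in Cre-positive libraries. The deposited mean transcript length, weighted by the estimated abundance of each annotated isoform, was 1669, 1809 and 1660 bases in Cre-positive replicates, against 1096, 1161 and 1163 bases in the Cre-negative replicates. The ratio of the group means was 1.5, and the groups stood far apart. Bcl2l1 was the 1 member of 10 whose lengths did not overlap between groups, where 6.72% of all tested genes did not. Gaps that also reached 1.5-fold, a size chosen after the values were seen, occurred in 1.88% of tested genes. The table lists 9 transcripts for the gene, which span 472 to 2568 bases in the GENCODE M21 annotation, and which of them differ is not given at gene level. With effective length offsets the log2 fold change of Bcl2l1 was -0.94 with a standard error of 0.40 (edgeR adjusted p = 0.678), in place of -0.16 without them. Its TPM was 28.1, 22.8 and 20.6 in Cre-positive libraries and 56.7, 23.8 and 60.3 in Cre-negative libraries, where Cre-negative replicate 2 overlapped the Cre-positive range.

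**Figure D3:**
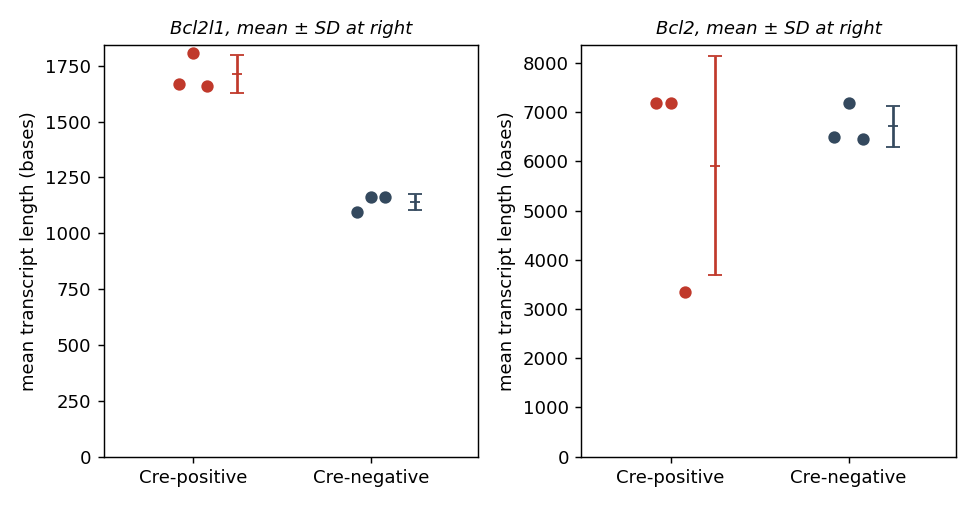
Mean transcript length in bases, as deposited, of Bcl2l1 (left) and Bcl2 (right) in each library, with the group mean and SD beside the points, Cre-positive in red and Cre-negative in dark blue. The Cre-positive Bcl2l1 values of 1660 to 1809 bases lie above all Cre-negative values, while for Bcl2 the groups overlap and Cre-positive replicate 3 stands low at 3341 bases.

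Bcl2 transcripts had a mean length of 7191, 7191 and 3341 bases in Cre-positive libraries and 6489, 7191 and 6445 bases in Cre-negative libraries. The lone low value, in Cre-positive replicate 3, was in the library with the fewest Bcl2 reads. Bcl2l2, the gene of BCL-W, was scarce. It had 5.82, 8.11 and 9.74 CPM in Cre-positive libraries, against 2.89, 12.8 and 10.8 CPM in Cre-negative libraries, so Cre-negative replicate 1 was lowest and the groups overlapped. Its log2 interval was -1.61 to 1.28, and its sign turned in 4 of 16 alternatives.

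Bak1 encodes BAK, the effector that sits in the outer membrane and opens it once freed. It had 54.9, 49.8 and 72.6 CPM in Cre-positive libraries, against 78.1, 66.4 and 88.6 CPM in Cre-negative libraries. Only Cre-positive replicate 3 reached into the Cre-negative range. The log2 fold change was -0.39 with a 95% interval of -0.83 to 0.04 (edgeR adjusted p = 0.685), and it was negative in all 16 alternatives. The effector outside the set, Bax, had a log2 fold change of 1.22 in the same fit, with an interval of 0.69 to 1.75 that does not meet that of Bak1, although Bax did not pass over all genes either (edgeR adjusted p = 0.138).

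Of the BH3-only genes, Bid, which caspase-8 cleaves to link death receptors to mitochondria, varied little among Cre-positive libraries. It had 34.9, 39.4 and 34.99 CPM in Cre-positive libraries, against 45.5, 20.6 and 35.1 CPM in Cre-negative libraries. The Cre-negative values enclosed the Cre-positive ones, and the log2 interval was -0.55 to 0.78 (edgeR adjusted p = 0.999). The sign turned, to -0.15, without Cre-negative replicate 2.

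Bcl2l11 encodes BIM, which binds every survival member and is held down by growth factor signals. It had 48.4, 28.8 and 9.93 CPM in Cre-positive replicates 1, 2 and 3, against 21.7, 21.9 and 10.0 CPM in the Cre-negative replicates. Both replicates 3 were the lowest of their groups and nearly equal, and Cre-positive replicate 1 was the highest of all. The log2 fold change of 0.70 (interval -0.50 to 1.91, edgeR adjusted p = 0.896) was 0.11 without Cre-positive replicate 1, 0.41 without Cre-negative replicate 3 and 1.11 without Cre-positive replicate 3. Mean transcript length of Bcl2l11 ranged from 1769 to 4114 bases in Cre-positive libraries and from 1851 to 4074 bases in Cre-negative libraries.

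Bad encodes a BH3-only protein that survival kinases keep phosphorylated and inactive. It had 14.4, 7.04 and 16.55 CPM in Cre-positive libraries, against 10.1, 5.07 and 12.7 CPM in Cre-negative libraries. Replicate 2 was the lowest in both groups, and the log2 fold change of 0.45 had an interval of -0.74 to 1.63 (edgeR adjusted p = 0.962).

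Bmf, which responds to loss of attachment and to cytoskeletal stress, was near the detection limit. It had 0, 134 and 210 reads in Cre-positive libraries, against 0, 579 and 365 reads in Cre-negative libraries. A count of 0 allows up to 0.0242 CPM in Cre-positive replicate 1 and up to 0.0312 CPM in Cre-negative replicate 1, for counting error only. The log2 interval of -6.72 to 4.04 spans both directions, and with effective length offsets the log2 fold change was 1.07 in place of -1.34.

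Bnip3l, the mitophagy receptor of maturing red cells, was the most abundant member per length. It had 116, 118 and 132 CPM in Cre-positive libraries, against 98.6, 106 and 116 CPM in Cre-negative libraries. The groups lay next to each other: the lowest Cre-positive library, at 116.3 CPM, was barely above the highest Cre-negative one, at 115.8 CPM. The ratio of means was 1.14, with a log2 interval of -0.09 to 0.47 (edgeR adjusted p = 0.843). On the TPM scale the groups overlapped, at 306, 211 and 327 in Cre-positive and 204, 311 and 320 in Cre-negative libraries.

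**Figure D4:**
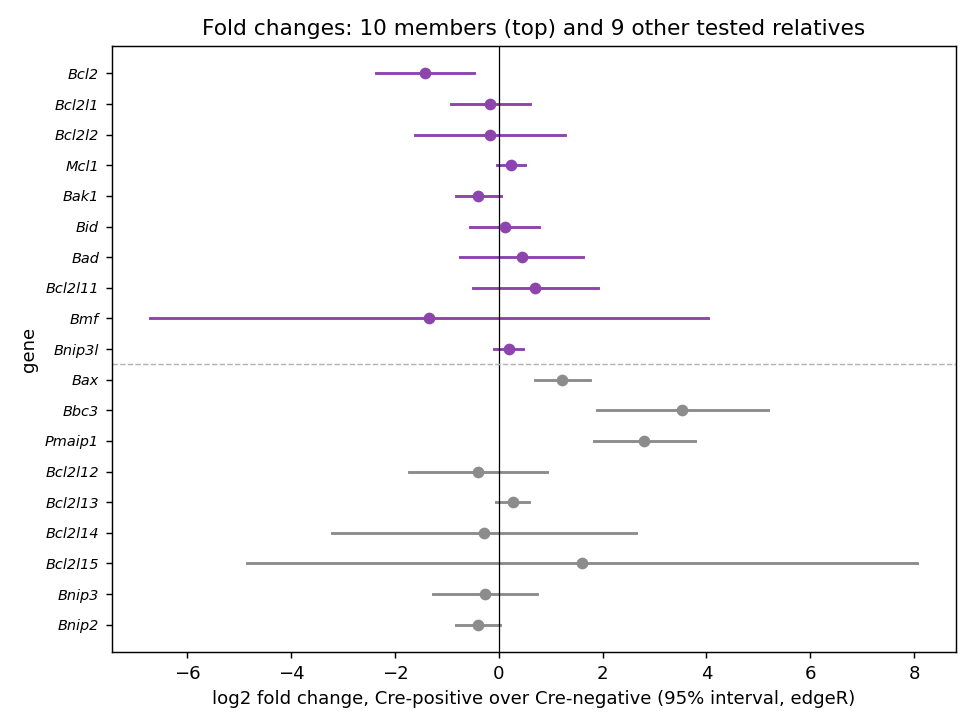
Log2 fold changes of Cre-positive over Cre-negative libraries with 95% intervals (edgeR) for the 10 members (purple, above the dashed line) and 9 other tested relatives (grey). Of the members, Bcl2 alone has an interval that stays off 0, and the intervals of Bax, Bbc3 and Pmaip1 lie wholly above 0.

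Levels of different genes were compared per length. By mean TPM the order ran Bnip3l (281), Mcl1 (93.8), Bak1 (57.1), Bad (24.0), Bcl2l1 (23.8), Bid (21.4), Bcl2l11 (14.2), Bcl2l2 (2.75), Bcl2 (1.87) and Bmf (1.53) in Cre-positive libraries. In Cre-negative libraries it ran Bnip3l (278), Bak1 (81.6), Mcl1 (76.0), Bcl2l1 (47.0), Bid (20.8), Bad (13.7), Bcl2l11 (9.29), Bcl2 (4.52), Bcl2l2 (3.16) and Bmf (0.74). In Cre-positive libraries the ranges of Bnip3l, Mcl1 and Bak1 did not overlap that of the next gene down, and every later pair of neighbours overlapped. The lowest Bak1 value, 37.07 TPM, was barely above the highest Bad value, 36.75 TPM. In Cre-negative libraries Bnip3l alone stood clear of its neighbour, so the order of Bak1 and Mcl1 was not resolved there. On the same scale Mcl1 lay above Bak1 in every Cre-positive library, and Bak1 lay above Mcl1 in 2 of 3 Cre-negative libraries.

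The balance of survival and death members was read as the summed TPM of the 4 survival genes over that of Bak1, Bid, Bad, Bcl2l11 and Bmf. Survival genes summed to 113, 141 and 113 TPM in Cre-positive replicates, against 139, 86.7 and 166 TPM in the Cre-negative replicates. Death genes summed to 138, 96.9 and 120 TPM in Cre-positive replicates, against 142, 106 and 131 TPM in the Cre-negative replicates. The ratio was 0.818, 1.45 and 0.946 in Cre-positive libraries and 0.983, 0.818 and 1.27 in Cre-negative libraries, so the groups overlapped fully. On the log2 scale it averaged 0.055 ± 0.431 in Cre-positive and 0.010 ± 0.318 in Cre-negative libraries (SD, n = 3 each). A score over chosen genes was given no test.

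**Figure D5:**
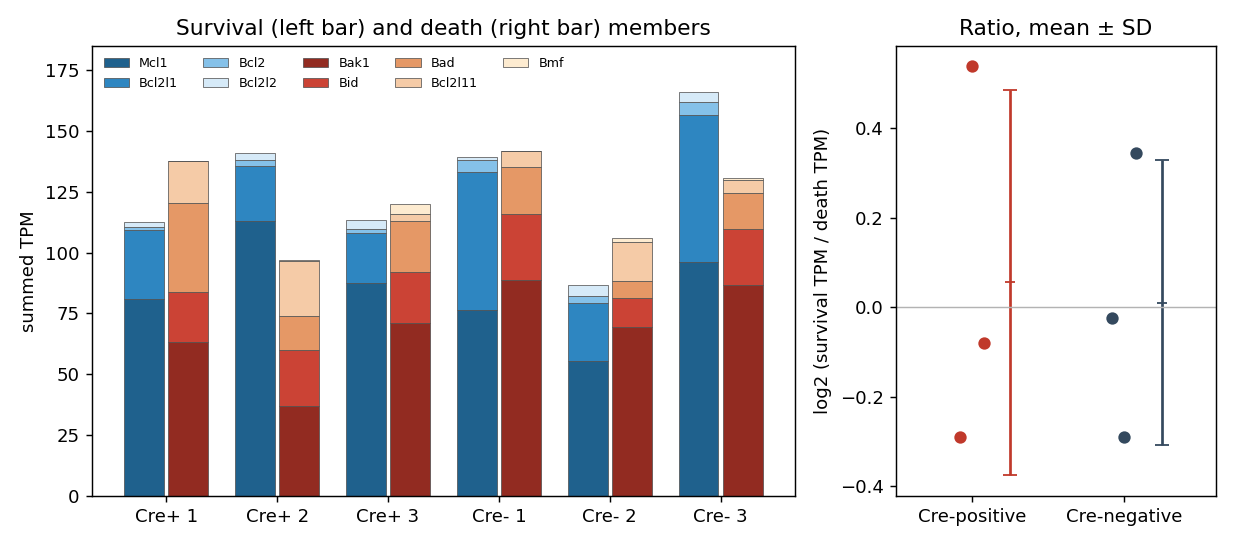
Left, summed TPM of the survival members (blue, left bar) and death members (red to orange, right bar) in each library, stacked by gene, with the Cre-positive libraries (Cre+) left of the Cre-negative ones (Cre-). Right, log2 of their ratio per library with group mean and SD, which spans -0.291 to 0.538 in Cre-positive and -0.290 to 0.344 in Cre-negative libraries.

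Within the survival genes, Mcl1 supplied 72.0%, 80.2% and 77.1% of survival TPM in Cre-positive replicates, against 54.8%, 63.8% and 58.0% in the Cre-negative replicates. Its share was higher in every Cre-positive library. On the CPM scale, which ignores length, the shares were 74.5%, 75.3% and 77.7% in Cre-positive libraries and 61.65%, 73.1% and 61.1% in Cre-negative libraries, still without overlap but with a narrow gap to Cre-negative replicate 2. Bcl2 supplied 4.69%, 6.44% and 2.99% of survival CPM in Cre-positive libraries, against 15.4%, 10.1% and 13.45% in Cre-negative libraries. These shares were compared after the values were seen and have no test. Without Mcl1 in the sum, the log2 balance by TPM of Cre-positive minus Cre-negative libraries was -0.77, in place of 0.04. Most of the survival TPM then left was Bcl2l1, whose log2 fold change was -0.94 with effective length offsets and -0.16 without them. The balance without Mcl1 was not taken on the CPM scale.

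Other BCL2 relatives set the scale. Of 17 listed, 16 were matched and 9 tested. None passed over all genes by edgeR or limma-voom. There were 3 at an unadjusted p under 0.05, against 8.23% of all tested genes, and 3 called by DESeq2, against 3.5%. With the replicate number as a block 1 passed in edgeR, against 0.427% of all tested genes. That was Pmaip1, whose adjusted p was 0.0598 in edgeR, and which passed in 4 of 16 alternatives, among them edgeR without a filter (0.026) and with at least 100 counts in 3 libraries (0.0326). The 9 had a median log2 fold change of 0.27. The 3 lowest p-values belonged to Pmaip1, Bax and Bbc3, the p53 targets. Bax had 125, 163 and 98.2 TPM in Cre-positive libraries, against 47.3, 68.1 and 80.7 TPM in Cre-negative libraries. Bbc3, which encodes the BH3-only protein PUMA, had 11.75, 67.6 and 18.7 TPM in Cre-positive libraries, against 0.79, 0.68 and 7.68 TPM in Cre-negative libraries. Pmaip1, which encodes NOXA, the BH3-only partner of MCL1, had 13.02, 13.65 and 8.20 TPM in Cre-positive libraries, against 1.39, 2.11 and 1.26 TPM in Cre-negative libraries. All 3 were higher in every Cre-positive library by CPM and TPM, and 7.53% of all tested genes were higher without overlap by CPM. These 3 were then added to the death members, a choice made after the values were seen. The ratio was 0.392, 0.413 and 0.4625 in Cre-positive libraries, against 0.728, 0.490 and 0.753 in Cre-negative libraries. The groups did not overlap, with a narrow gap to Cre-negative replicate 2. Because the 3 genes were already seen to be higher, a lower ratio was built into that choice and is no separate result.

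Several relatives were not seen. Bik, Hrk, Bcl2l10 and the near-identical copies Bcl2a1a, Bcl2a1b and Bcl2a1d had 0 reads in all 6 libraries. A count of 0 allows up to 0.0339 CPM in the shallowest library, for counting error only. The scatter of scarce genes between libraries is not covered by that bound. Bok, another effector-like relative, had 39, 0 and 0 reads in Cre-positive libraries, against 0, 0 and 242 reads in Cre-negative libraries. Bnip3, the closest relative of Bnip3l, had 9.45, 9.504 and 19.8 CPM in Cre-positive libraries, against 13.6, 21.1 and 12.1 CPM in Cre-negative libraries, with overlap. Bnip2, a relative named for binding BCL2, had 53.5, 44.3 and 46.4 CPM in Cre-positive libraries, against 58.5, 76.2 and 55.7 CPM in Cre-negative libraries, lower without overlap (edgeR adjusted p = 0.657). On the TPM scale Bnip3l lay above Bnip3 in all 6 libraries.

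Of 22 regulators and partners 21 were tested, and none passed by edgeR or limma-voom. An unadjusted p under 0.05 was seen for 2, against 8.23% of all tested genes, and DESeq2 called 1, against 3.5%. The 21 had a median log2 fold change of -0.05. Creb1, a transcription factor known to act on Bcl2, averaged 95.9 CPM in Cre-positive and 136.9 CPM in Cre-negative libraries, with a log2 fold change of -0.51 (SE 0.12, edgeR adjusted p = 0.214) and no overlap. Stat5b, which carries erythropoietin signals to Bcl2l1, averaged 146 CPM in Cre-positive and 120 CPM in Cre-negative libraries (log2 fold change 0.29, SE 0.11, edgeR adjusted p = 0.527).

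Downstream of membrane permeabilisation, 10 of 10 genes were tested and none passed by edgeR, DESeq2 or limma-voom. There was 1 at an unadjusted p under 0.05, against 8.23% of all tested genes. The median log2 fold change was -0.06. Apaf1, the scaffold of the apoptosome and itself a known p53 target, averaged 59.2 CPM in Cre-positive and 40.3 CPM in Cre-negative libraries (log2 fold change 0.56, SE 0.20, edgeR adjusted p = 0.467). Cycs, cytochrome c, averaged 159 CPM in Cre-positive and 199.6 CPM in Cre-negative libraries (log2 fold change -0.33, SE 0.16, edgeR adjusted p = 0.695).

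Of 16 genes of the mitophagy machinery that works with Bnip3l, 15 were tested. None passed by edgeR, DESeq2 or limma-voom, where 0.122%, 3.5% and 0.152% of tested genes passed. At an unadjusted p under 0.05 by edgeR there were 0, against 8.23% of all tested genes. The 15 had a median log2 fold change of 0.00. Fkbp8, an outer membrane protein that recruits LC3, averaged 162 CPM in Cre-positive and 137 CPM in Cre-negative libraries, and Pink1, the kinase that marks damaged mitochondria, averaged 13.6 CPM in Cre-positive and 20.9 CPM in Cre-negative libraries (edgeR adjusted p = 0.732 and 0.831).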

How the data were processed

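Total RNA of 6 sorted samples was sequenced from Takara's SMARTer Stranded Pico libraries, per the labels. The authors used STAR 2.5.3a and RSEM 1.3.0 on GRCm39, per the submitters' processing notes. Neither the annotation release nor a strand setting is given in the sources used here. The deposited tables give for each gene an expected count, TPM, FPKM (not used here) and mean and effective transcript lengths. Gene identifiers without version were matched to symbols for 52081 of 55359 entries. Expected counts, 2.64% of them not whole, were rounded. Genes were kept by filterByExpr (13117) and tested with edgeR 4.0.16 (glmQLFit, glmQLFTest, TMM factors 0.988 to 1.02) in R 4.3.3, Cre-positive over Cre-negative, with Benjamini-Hochberg adjustment across the 13117 genes. Intervals are 95% intervals from the fit's own degrees of freedom, and the common biological coefficient of variation was 85.4%. CPM use TMM-scaled totals. Floors of 3 counts cover counting error only.

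DESeq2 1.42.0 and limma 3.58.1 (voom, or log2 TPM with a pseudocount of 0.5) were alternatives, with other scalings, filters, a replicate block, effective length offsets and each library left out. The fits were tested on simulated counts drawn with the gene-wise spread that edgeR estimated. There DESeq2 found more of the changed genes than edgeR and also called far more unchanged ones. Because the spread was edgeR's own, those counts cannot decide between the tools. On them edgeR missed most 2-fold and many 4-fold changes. The members and lists were chosen with earlier results of these data known. All 10 members were named, every tested relative could be named, and of each other list of family regulators, downstream genes and mitophagy genes the 2 with the smallest p. Of the marker lists the most abundant marker and those at 0 could be named, and the sorted progenitor markers named here were chosen after their values were seen. The labels do not tie libraries to litters, and p-values measure the spread between these libraries.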

Additional observations from a re-analysis of the deposited data

How the results depend on the processing

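Of 160 recomputed log2 fold changes (10 members, 16 alternatives), 151 kept their sign and their side of the threshold, 1 passed it (Bcl2 with DESeq2, -1.43, adjusted p = 0.0105) and 8 turned. Those were Bcl2l1 without Cre-negative replicate 3 (0.06), Bcl2l2 with the replicate block (0.06) and without Cre-positive replicate 1 (0.02), Cre-negative replicate 2 (0.21) or Cre-negative replicate 3 (0.01), Bid without Cre-negative replicate 2 (-0.15), and Bmf with effective length offsets (1.07) or limma on log2 TPM (0.33). The cause was not tested. Without single libraries, Bcl2l1 ran from -0.47 to 0.06, Bcl2l2 from -0.58 to 0.21 and Bid from -0.15 to 0.39. Members called lower numbered 1 with DESeq2 and 0 otherwise, and members called higher 0 throughout these alternatives. Over all genes the higher calls, 16 by edgeR, were 235 with DESeq2, 33 without a filter, 38 with the replicate block and 6 with effective length offsets or limma on log2 TPM, and 7 to 16 without single libraries. Lower calls, 0 by edgeR, were 218, 6 and 18 in the first 3 of these, 3 with at least 100 counts in 3 libraries, and 0 to 3 without single libraries. By TPM, the log2 balance difference of 0.04 was -0.77 without Mcl1 and -0.20 to 0.22 without single libraries. It was -0.61 with Bax, Bbc3 and Pmaip1 added, a choice made after their higher values were seen. Same-numbered libraries deviated from their group means with correlations of 0.026, 0.0534 and 0.0725 across genes. Each library correlated best with its own number, a hint from the data and not the design, so the numbers were not taken as pairs. The replicate block changed no call of a member. Bmf rested on 0 to 579 reads a library.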

Other observations

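Bcl2l13, an outer membrane relative that also serves as a mitophagy receptor, was chosen here once its values were known. It had 249, 258 and 178 CPM in Cre-positive libraries, against 199.8, 181.5 and 188 CPM in Cre-negative libraries, with overlap and a log2 fold change of 0.27 (edgeR adjusted p = 0.747). Its mean transcript length was 6424, 6070 and 6111 bases in Cre-positive libraries, against 3820, 2921 and 2897 bases in Cre-negative libraries. Its TPM was 44.5, 50.02 and 34.25 in Cre-positive libraries, against 63.7, 77.35 and 84.15 in Cre-negative libraries, so the direction was the opposite of that in CPM. With effective length offsets the log2 fold change was -0.77 (edgeR adjusted p = 0.382).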
